A study of Mus musculus with 6 samples.

Results

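The genes of MHC class I antigen presentation were followed as 10 mouse genes chosen by name, of 56748 genes in the deposited table. They were the class I light chain B2m, the heavy chains H2-K1 and H2-D1, the peptide transporter genes Tap1 and Tap2, the loading factor Tapbp, the immunoproteasome genes Psmb8, Psmb9 and Psmb10, and the regulator Nlrc5. All 10 symbols matched 1 row each, and all 10 had a mean of at least 10 normalized counts over the libraries, the level required for testing. Nlrc5 passed that level only through day 3 replicate 1, since its day 28 mean was 6.60.

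Class I molecules carry short peptides from proteins made inside a cell to its surface, where CD8+ T cells read them. The proteasome cuts the proteins, and under interferon-gamma its catalytic subunits are exchanged for those encoded by Psmb8, Psmb9 and Psmb10. TAP moves the peptides into the endoplasmic reticulum, tapasin holds empty class I molecules beside it, and beta-2 microglobulin completes the molecule. Resting brain tissue is known for low class I levels, and interferon can raise them in microglia, endothelium, astrocytes and neurons.

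Polyadenylated RNA was sequenced from brain of mice that carried implanted MCF10DCIS cells, a human line that models ductal carcinoma in situ of the breast. The implanted cells expressed CD63, a tetraspanin of extracellular vesicles, fused to the luciferase NanoLuc. Brain was collected 3 days (3 libraries) or 28 days (3 libraries) after implantation, and the series asked how expression differed between the times. All groups share the implant and the labelled cells, no unimplanted animal was analysed here, and the labels give no strain, sex or age. The title names an intraductal mouse model. Whether each library is its own mouse is not stated, so each p-value reflects only how these libraries scatter, and that scatter may be technical.

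Depth ran from 11958137 to 16059196 reads per library, and 1 normalized count is close to 1 read in each. Neuron markers had summed levels of 127079 to 143649 normalized counts in every library, as the tissue label requires. Day 3 replicates 1 and 2 stood apart in cerebellar neuron genes, with summed levels of 48889 and 47169 against 12563 to 19463 in the other libraries. Day 3 replicate 2 also stood apart in liver-made plasma protein genes, with a summed level of 135492 against 4477 to 5588 in the others. The first day 3 library stood apart the other way. Apart from Trf, which brain also makes, the 14 other genes of this list summed to 90.7 there against 1088 to 2064 in day 3 replicate 3 and the day 28 libraries. The class I results are therefore given by library, and with and without these libraries.

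None of the 10 class I genes passed the test between day 28 and day 3, and the 3 day 3 libraries differed widely from each other. All 10 were highest in day 3 replicate 1, at 1.51 to 73.8 times their day 28 mean (median 12.1). In day 3 replicate 2 only B2m, H2-K1, H2-D1 and Psmb8 exceeded 2 times the day 28 mean. In day 3 replicate 3 no member lay above all day 28 libraries. With limma, 0 of 10 had an adjusted p under 0.05, against 0.192% of the 16162 tested genes (31 genes), with 0.124% lower and 0.0681% higher at day 28. At an unadjusted p under 0.05 there were 3 of 10, B2m, H2-K1 and H2-D1, against 13.4% of all tested genes. With voom on the reads, 0 of 10 passed and 1 had an unadjusted p under 0.05. The median log2 difference, day 28 minus day 3, was -1.56 over the 10 genes and -0.0091 over all tested genes. Without Nlrc5, the median of the other 9 was -1.46. The difference was negative for 10 of 10 members and for 51.4% of all tested genes. The groups overlapped for all 10 genes, while they did not overlap for 18.9% of all tested genes.

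**Figure D1:**
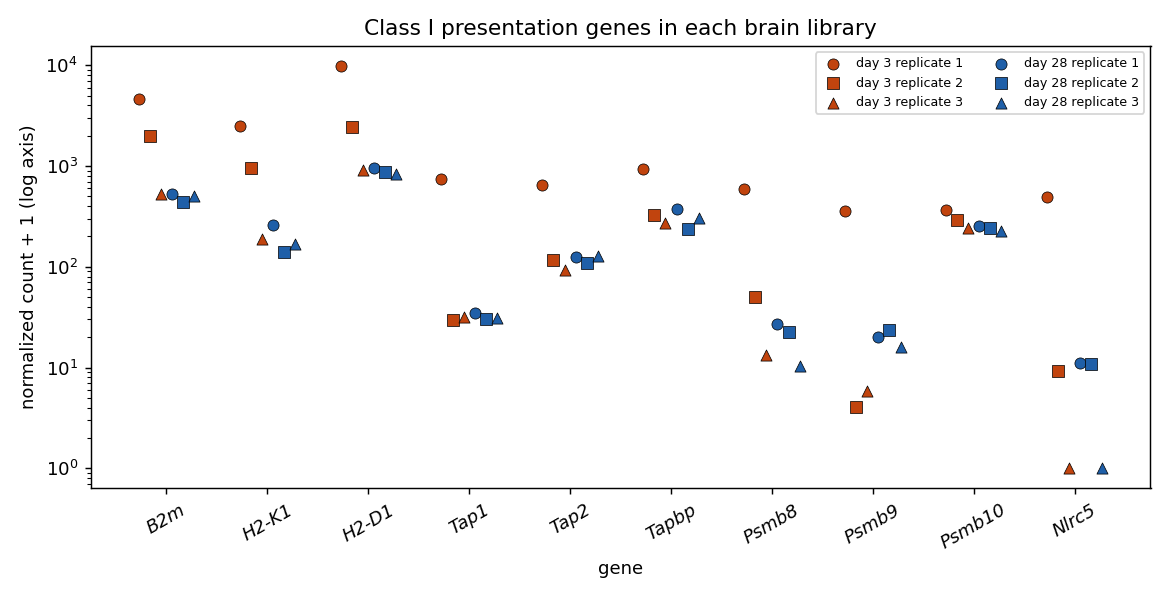
Normalized count plus 1 (log axis) of the 10 class I presentation genes in the 6 brain libraries. Colour marks the day and shape the replicate. Day 3 replicate 1 is the highest point for every gene, and day 3 replicate 3 lies among or below the day 28 libraries.

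The light chain and the classical heavy chains were high in both day 3 replicate 1 and day 3 replicate 2. B2m (ENSMUSG00000060802), which encodes beta-2 microglobulin, had 4607, 1986 and 526 normalized counts in the day 3 libraries, in replicate order here and below. Its day 28 libraries had 529, 434 and 502. Day 3 replicates 1 and 2 were therefore 9.43 and 4.07 times the day 28 mean, and the third day 3 library lay inside the day 28 range. The group values were 2373 ± 2068 and 488 ± 49.1 (SD, n = 3 each), with a log2 difference of -1.79 (SE 0.62, limma adjusted p = 0.259).

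H2-K1 (ENSMUSG00000061232), the heavy chain of the H-2K molecule, had 2495, 957 and 189 normalized counts at day 3. At day 28 it had 259, 140 and 168, so that again only the third day 3 library lay within the day 28 range. Its log2 difference was -2.07 (SE 0.76, limma adjusted p = 0.288). H2-D1 (ENSMUSG00000073411), the heavy chain of H-2D, had 9810, 2444 and 902 normalized counts at day 3. The day 28 libraries had 949, 878 and 830. The first 2 day 3 libraries were 11.1 and 2.76 times the day 28 mean, and the log2 difference was -1.65 (SE 0.68, limma adjusted p = 0.340). Heavy chain genes are close copies that can share reads, and their alleles differ between mouse strains, so the split of reads among them is uncertain.

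The heavy chains kept nearly the same proportion to the light chain in every library. The log2 of H2-K1 plus H2-D1 minus that of B2m was 1.42, 0.78 and 1.05 at day 3. At day 28 it was 1.19, 1.23 and 0.99. It thus spanned less than 1 log2 unit, while B2m itself spanned over 3.

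The proximal promoters of B2m, H2-K1, H2-D1 and Tap1 are shown because the first 3 genes were high in day 3 replicates 1 and 2 and Tap1 in replicate 1 alone. Psmb8 was also high in both, and its promoter, not printed, held none of the motifs searched. Each line gives the 170 bases just before the annotated start, 5′ to 3′ on the gene's strand, from RefSeq on GRCm38.p6. Capitals mark matches, on either strand, to AANNGAAA (the core bound by interferon regulatory factors), TGACG (the core of CREB and ATF sites, as in the X2 box) and CCAAT (the core of the Y box, bound by NF-Y).
B2m, chr2:122147517-122147686, plus strand: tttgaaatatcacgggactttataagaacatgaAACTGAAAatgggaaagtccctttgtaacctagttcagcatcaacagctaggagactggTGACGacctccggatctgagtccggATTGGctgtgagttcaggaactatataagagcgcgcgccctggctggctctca
H2-K1, chr17:34000348-34000517, minus strand: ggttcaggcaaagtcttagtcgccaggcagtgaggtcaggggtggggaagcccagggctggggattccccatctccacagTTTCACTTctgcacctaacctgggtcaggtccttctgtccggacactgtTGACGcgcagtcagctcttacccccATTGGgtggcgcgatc
H2-D1, chr17:35262924-35263093, plus strand: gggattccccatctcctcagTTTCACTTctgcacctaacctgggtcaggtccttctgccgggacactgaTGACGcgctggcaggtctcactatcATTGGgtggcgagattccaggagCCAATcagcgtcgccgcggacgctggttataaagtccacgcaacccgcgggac
Tap1, chr17:34187386-34187555, plus strand: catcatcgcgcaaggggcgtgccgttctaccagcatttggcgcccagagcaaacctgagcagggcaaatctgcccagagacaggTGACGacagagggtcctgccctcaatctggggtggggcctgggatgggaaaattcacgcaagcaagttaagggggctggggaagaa

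B2m, H2-K1 and H2-D1 held all 3 motifs, in the same order from AANNGAAA to TGACG to an inverted CCAAT. Of the 8 members with a promoter in the table, 3 held AANNGAAA, 5 TGACG and 6 CCAAT in the 300 bases from 250 before to 50 after the start. Over all 32851 promoter windows of that length the shares were 23.9%, 20.8% and 37.4%, and 1.59% held all 3. The Tap1 and Psmb9 windows share 275 bases read from opposite strands, so their matches are not independent. The printed H2-K1 and H2-D1 stretches are near copies of each other around AANNGAAA and TGACG. Their matches and the order of these are therefore not independent either. None of the 3 motifs overlapped another in the printed stretches. A match describes the letters only and is not evidence of binding, and a window without one says nothing about the factor.

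The transporter genes were high in day 3 replicate 1 and near their day 28 level in the other day 3 libraries. Tap1 (ENSMUSG00000037321) and Tap2 (ENSMUSG00000024339) encode the subunits of the TAP peptide transporter. Tap1 had 746, 28.8 and 30.4 normalized counts at day 3, and its day 28 values were 33.9, 29.5 and 30.3. The first library was 23.9 times the day 28 mean, and the other 5 lay between 28.8 and 33.9. The log2 difference of Tap1 was -1.46 (SE 1.07, limma adjusted p = 0.595).

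For Tap2 the day 3 libraries had 652, 116 and 91.3 normalized counts, and the day 28 libraries 125, 109 and 126. Day 3 replicate 1 was 5.44 times the day 28 mean, and the third day 3 library lay below all day 28 libraries (log2 difference -0.67, SE 0.62, limma adjusted p = 0.689). The log2 of Tap1 minus that of Tap2 was 0.19 in day 3 replicate 1 and between -2.02 and -1.55 in the other 5. The proportion of the 2 transporter transcripts thus stood apart in 1 library. Tapbp (ENSMUSG00000024308), which encodes tapasin, had 932, 328 and 274 normalized counts at day 3. Its day 28 values were 371, 238 and 303, so that only day 3 replicate 1 lay outside them, at 3.06 times their mean (log2 difference -0.55, SE 0.41, limma adjusted p = 0.602).

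The immunoproteasome genes differed from each other in how far day 3 replicate 1 stood out. Psmb8 (ENSMUSG00000024338), which encodes the beta5i subunit, had 594, 49.4 and 12.2 normalized counts at day 3. Its day 28 libraries had 26.0, 21.4 and 9.48. Day 3 replicates 1 and 2 were 31.3 and 2.60 times the day 28 mean. Both lay above all day 28 libraries, and the third day 3 library did not (log2 difference -1.99, SE 1.16, limma adjusted p = 0.503).

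Psmb9 (ENSMUSG00000096727), the beta1i subunit, had 353, 3.08 and 4.87 normalized counts at day 3. Its day 28 values were 19.0, 22.3 and 15.2, so day 3 replicates 2 and 3, with 3 and 4 reads, lay below every day 28 library. The high first library and the low others gave a log2 difference of -0.057 (SE 1.46, limma adjusted p = 0.992). Psmb10 (ENSMUSG00000031897), the beta2i subunit, had 363, 288 and 243 normalized counts at day 3, with 254, 243 and 227 in the day 28 libraries. It varied least of the 10 genes at day 3, with a coefficient of variation of 20.2% against 71.4% to 169% for the others (log2 difference -0.29, SE 0.17, limma adjusted p = 0.506).

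Each immunosubunit replaces a constitutive one, so each was set against its counterpart within the library. The log2 of Psmb8 minus that of Psmb5 was 0.63, -3.36 and -5.13 at day 3. The day 28 gaps were -3.83, -4.07 and -5.09. For Psmb9 minus Psmb6 the values were -1.36, -8.35 and -7.64 at day 3, with -5.58, -5.52 and -5.86 for the day 28 libraries. Psmb10 minus Psmb7 ran from -2.66 to -1.86 over all 6 libraries. The mean of the 3 gaps was -0.86, -4.68 and -5.14 at day 3, with -3.87, -4.00 and -4.41 for the day 28 libraries. In this mean day 3 replicate 1 thus lay above, and the other day 3 libraries below, all day 28 libraries. For day 3 replicate 2 the low mean came from Psmb9 alone, which had 3 reads there. The Psmb8 gap of that library (-3.36) lay above all day 28 libraries, and its Psmb10 gap (-2.34) lay within their range. Between the times the mean gap differed by -0.53, less than the spread of the day 3 libraries (SD 2.35, n = 3, exact two-sided permutation p = 1.0, smallest possible 0.1).

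Nlrc5 (ENSMUSG00000074151) encodes a nucleotide-binding regulator that acts with RFX, CREB/ATF and NF-Y proteins at class I promoters. It had 487, 8.23 and 0 normalized counts at day 3, and 9.98, 9.82 and 0 were found in the day 28 libraries. The first library had 532 reads and no other had over 11, so Nlrc5 was close to the limit of detection in 5 of 6 libraries. Its log2 difference was -1.75 with an SE of 2.04 (limma adjusted p = 0.757). B2m, H2-K1 and H2-D1 were thus high in day 3 replicate 2 while Nlrc5, Tap1 and Psmb9 were not.

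**Figure D2:**
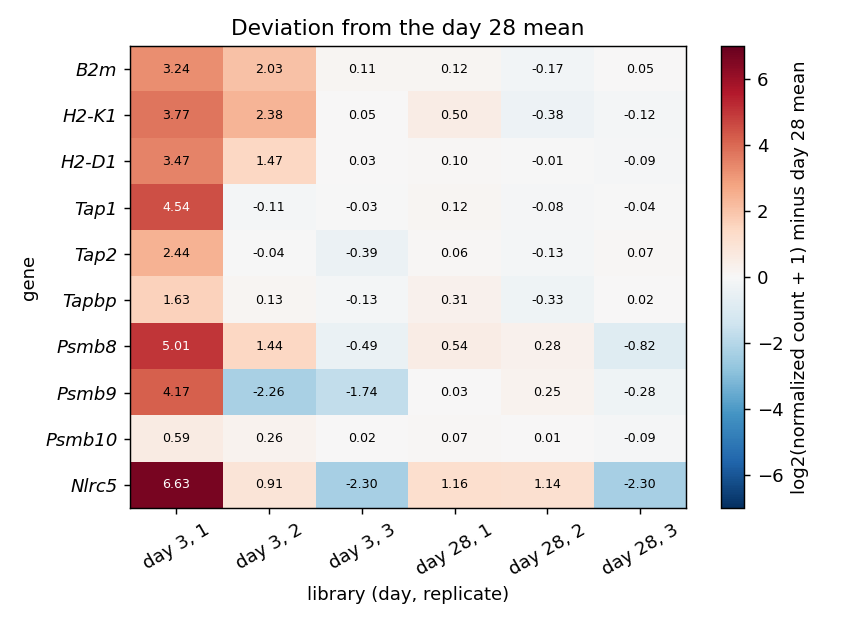
Heat map, genes in rows and libraries in columns, of the difference of each library from the day 28 mean of the same gene, on the log2(normalized count + 1) scale, for the 10 class I genes (red above, blue below, value in each cell). Day 3 replicate 1 is positive for all genes, from 0.59 (Psmb10) to 6.63 (Nlrc5), and day 3 replicate 2 exceeds 1 for B2m, H2-K1, H2-D1 and Psmb8.

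As levels, normalized counts were divided by the length of the principal GENCODE M21 transcript. At day 28 B2m was highest at 568 ± 57.1 per kb, followed by H2-D1 at 421 ± 28.5 and Psmb10 at 184 ± 10.4 (SD, n = 3). H2-K1 (117 ± 38.3 per kb) and Tapbp (105 ± 22.9 per kb) came next and overlapped. Tap2 had 34.8 ± 2.77 per kb. Psmb9 (13.9 ± 2.65 per kb), Psmb8 (11.6 ± 5.23 per kb) and Tap1 (10.6 ± 0.80 per kb) each overlapped its neighbour in this order, and Nlrc5 was lowest at 0.87 ± 0.75 per kb. In day 3 replicate 1 B2m and H2-D1 were again first and second, at 5357 and 4667 per kb. H2-K1 came next, Psmb8 took the fourth place in place of the eighth, and Psmb10 the sixth in place of the third.

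The differences between the times rested on which day 3 libraries were used. Without day 3 replicate 1 the median log2 difference of the 10 genes was -0.069. The differences of Tap1, Tap2, Psmb9 and Nlrc5 then turned positive, and those of B2m (-1.07), H2-K1 (-1.22) and H2-D1 (-0.75) stayed negative. Without day 3 replicates 1 and 2 the median was 0.082, from 1 day 3 library whose spread is assumed to be like that of the day 28 group. Without day 3 replicate 3 the median was -2.34, and B2m (log2 -2.63, adjusted p = 0.00746), H2-K1 (log2 -3.07, adjusted p = 0.0102) and H2-D1 (log2 -2.47, adjusted p = 0.0329) passed limma's threshold. In that fit 3 of 10 members were lower, against 1.84% of all tested genes. With the cerebellar neuron genes as a covariate the median was -0.31 and 0 of 10 members passed. Those neuron genes had a median deviation from the day 28 mean of 2.92 and 2.79 log2 units in day 3 replicates 1 and 2. In the other libraries it was -0.47 to 0.47. The fit therefore cannot separate cerebellar content from anything else that sets day 3 replicates 1 and 2 apart. The part of brain region composition in the class I values was not tested further.

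**Figure D3:**
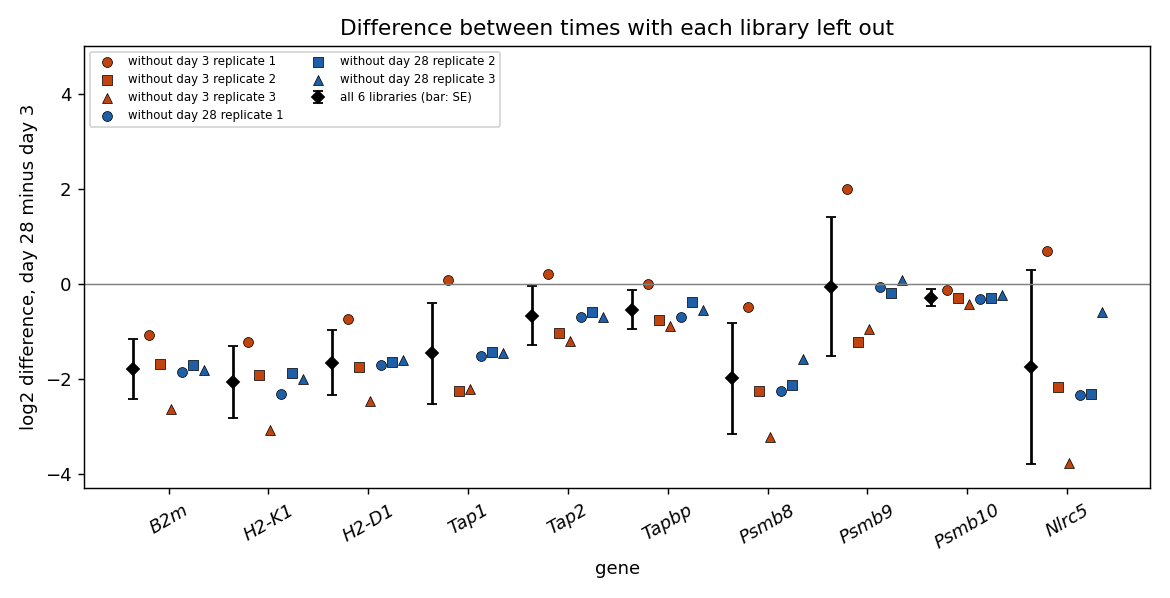
Log2 difference, day 28 minus day 3, of the 10 class I genes from all 6 libraries (black, bar: SE) and with each library left out (colour: day of that library, shape: its replicate number). Leaving out day 3 replicate 1 brings Tap1, Tap2, Psmb9 and Nlrc5 above 0, and leaving out day 3 replicate 3 gives the lowest value for 8 of the 10 genes.

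In day 3 replicate 1 several class I genes stood far above every other library. Tap1, Tap2, Psmb8, Psmb9 and Nlrc5, that is 5 of 10, exceeded every other library over 5 times, against 0.47% of all tested genes (76 of 16162). Nlrc5 was tested only because of this library, so its place there was set by the filter. Among genes whose other 5 libraries averaged at least 10, the count was 4 of 9 members against 0.213% (34 of 15952). All 10 members were highest in day 3 replicate 1, against 20.5% of tested genes, and so were 9 of 9 against 19.7% among genes so restricted. In day 3 replicate 2 B2m, H2-K1, H2-D1, Psmb8 and Psmb10 lay above every day 28 library, 5 of 10 against 35.3%. Day 3 replicate 3 exceeded every day 28 library for 0 of 10 members, against 30.8%. It lay below every one for 2 of 10, Tap2 and Psmb9, against 29.4%.

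The rest of the class I pathway was read from lists of genes, in which limma called 0 members of any list, and voom 0 of all 16162 genes. Of 16 tested genes among other heavy chains and class I-like molecules, 13 had a negative difference (median log2 -1.12, and -0.56 without day 3 replicate 1) and 1 had an unadjusted p under 0.05. That was H2-T23, the mouse Qa-1 molecule, at -2.19 (adjusted p = 0.198), and H2-Q1 was next at -1.85 (adjusted p = 0.399), 1 of 3 genes of this list tested only because of day 3 replicate 1. H2-Q4 had 1707, 175 and 76.7 normalized counts at day 3, with 108, 63.4 and 67.3 in the day 28 libraries. H2-Q10, a secreted heavy chain made mainly by liver, had 24.7, 752 and 24.3 at day 3, with 9.98, 16.1 and 18 in the day 28 libraries. It was therefore high only in the library rich in liver transcripts.

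The general machinery of folding and protein breakdown had smaller differences. The 12 genes of peptide trimming and loading had a median log2 difference of -0.15 with 3 at an unadjusted p under 0.05, led by the class I chaperones Pdia3 (-0.36) and Calr (-0.31). Their median deviation from the day 28 mean in day 3 replicate 1 was 0.10 log2 units. Only 2 of the 12 were highest in that library, Tapbpl and Erap1, at 2.35 and 1.96 times the day 28 mean. The 15 constitutive proteasome core genes had a median of -0.19, with all 15 negative and 4 at an unadjusted p under 0.05, led by Psmb4 (-0.31) and Psmb3 (-0.34). Summed levels of the core were 12332, 14861 and 14360 normalized counts at day 3 and 11800 to 12987 in the day 28 libraries. Day 3 replicates 2 and 3 thus lay above the day 28 libraries, and day 3 replicate 1 within their range. Among 4 proteasome activator genes the median was -0.24 with 1 at an unadjusted p under 0.05. Psme1 (-0.53) and Psme2 (-0.40), the interferon-responsive PA28 subunits, had 371 and 294 normalized counts in day 3 replicate 1.

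Some regulators were high in day 3 replicate 1, but the lists of regulators and interferon signalling genes deviated far less there than the class I members. The median deviation from the day 28 mean was 0.58 and 0.52 log2 units for these lists and 3.62 for the members. Ciita, Socs1 and Usp18 of these lists were tested only because of day 3 replicate 1. Without such genes the median deviation was 0.48 and 0.33 for these lists and 3.47 for the members. The 19 regulators of class I transcription had a median log2 difference of -0.28 (-0.056 without day 3 replicate 1), 2 had an unadjusted p under 0.05, and 14 were highest in that library, of which Ciita was tested only because of it. Nfya and Nfyb, subunits of NF-Y, were at 0.79 and 0.68 times the day 28 mean in that library. Irf2 (-0.28) and Irf7 (-2.26) had the smallest p of this list. Irf1, an activator of class I promoters, had 400, 49.4 and 40.2 normalized counts at day 3, and 53.9, 46.4 and 37.9 in the day 28 libraries. Among 11 tested interferon signalling genes (receptors, kinases and feedback inhibitors) the median was -0.21 (0.032 without day 3 replicate 1) with 1 at an unadjusted p under 0.05, and Ifngr1 (-0.48) and Ifngr2 (-0.30), the interferon-gamma receptor chains, had the smallest p. Ifng itself had 1 read in day 3 replicate 1 and 0 in the others, and Ifnb1 and Ifna4 had 0 in all libraries. Ifnb1 and Ifna4 were thus not detected at this depth, and 1 read of Ifng is too few to count as detected.

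Of the lists read here, genes induced by interferon-gamma had the highest median deviation in day 3 replicate 1. The 20 interferon-gamma-induced GTPases and chemokines had a median deviation of 5.27 log2 units from the day 28 mean in day 3 replicate 1 and of -0.28 and -0.92 in day 3 replicates 2 and 3. Of the 20, 8 were tested only because of day 3 replicate 1, and the median deviation there of the other 12 was 4.90. The median difference between the times was -1.14, with 0 at an unadjusted p under 0.05, and 0.72 without day 3 replicate 1. Gbp4, an interferon-induced GTPase, had 2407 normalized counts in day 3 replicate 1 and 8.52 to 91.8 elsewhere. Cxcl9, a T cell-attracting chemokine and one of the 8, had 484 there, 7.20 in day 3 replicate 2 and 0 elsewhere. The smallest p of this list belonged to Iigp1 (-3.87) and Gbp8 (-3.52, one of the 8). Iigp1 was high in both libraries in which B2m was, with 1384 and 351 normalized counts against 4.87 in day 3 replicate 3.

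The 21 tested interferon-stimulated genes outside class I had a median difference of -0.89 with 2 at an unadjusted p under 0.05, and of 0.051 without day 3 replicate 1. Of these, 4 were tested only because of that library, Isg15 among them, and the other 17 were all highest in it. Isg15 (-2.76) and Bst2 (-1.93) had the smallest p. The 10 genes of class II presentation had a median of -0.83 with 1 at an unadjusted p under 0.05, and of -0.083 without day 3 replicate 1. Of these, 4 were tested only because of that library, and the other 6 were all highest in it. Cd74, the class II invariant chain, had 3984 normalized counts there and 22.7 to 54.5 elsewhere, and H2-Ab1 (-3.17) and Ctss (-0.70) had the smallest p. The class II genes were mixed in day 3 replicate 2. H2-Ab1, H2-Aa and Cd74 were at 2.49, 2.30 and 2.01 times the day 28 mean and above every day 28 library. Ctss was at 1.07 times it, and H2-DMa was at 0.77 times it and below every day 28 library. H2-Eb1 and H2-DMb1 were at 0.34 and 0.40 times it, but with 2 reads each and inside the day 28 range. Both were tested only because of day 3 replicate 1.

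**Figure D4:**
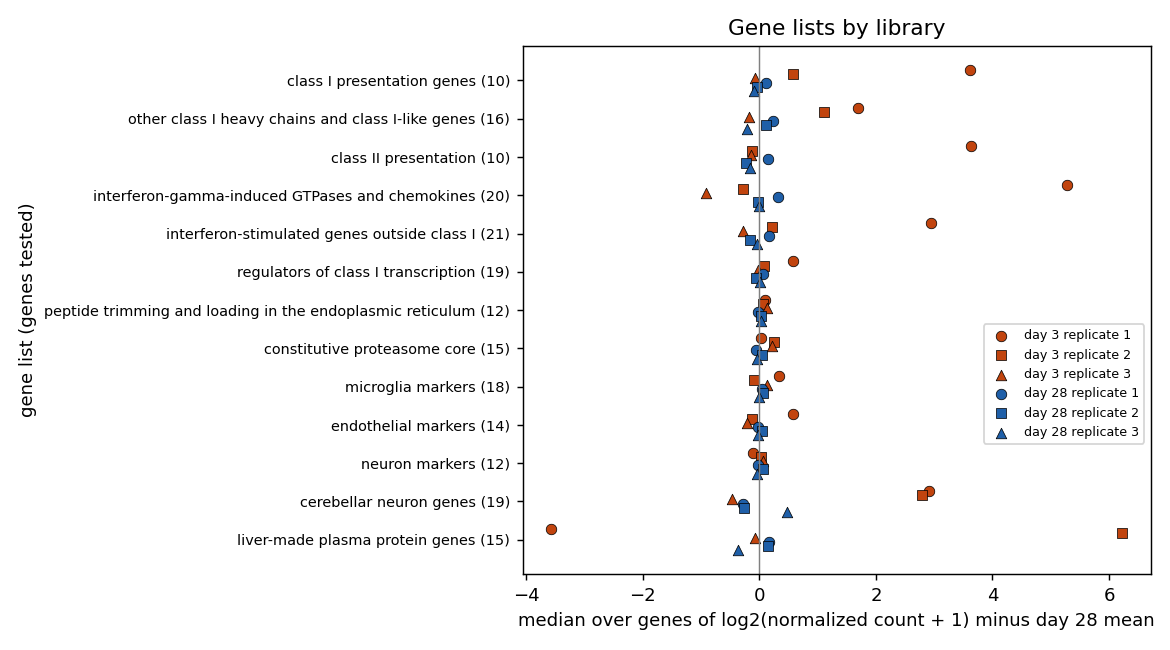
Median over the tested genes of each list of the deviation from the day 28 mean, on the log2(normalized count + 1) scale, by library. Day 3 replicate 1 stands to the right for class I, class II and interferon lists, both day 3 replicates 1 and 2 for cerebellar genes, and for liver-made genes day 3 replicate 2 stands to the right (6.22) and day 3 replicate 1 to the left (-3.57).

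Markers of other cell types were read beside the class I genes, because in bulk tissue fewer cells of a type and less RNA per cell cannot be told apart. Of 22 T and NK cell markers, 4 were tested and 1 had an unadjusted p under 0.05. Their summed level was 261 to 326 normalized counts at day 3 and 353 to 506 at day 28, most of it from Cd4 (log2 difference 0.77), and Lck (0.82) came next by p. The CD3 genes Cd3d, Cd3e and Cd3g had at most 4 reads in any library, and Cd8a had 4 reads in day 3 replicate 1. The T cell receptor chain genes Trbc2 and Trac had 33 to 52 and 5 to 15 reads over the libraries. Klrk1, Klrd1 and Nkg7 had 7, 6 and 5 reads in day 3 replicate 1 and at most 1 elsewhere. Gzma and Ncr1 were highest in day 28 replicate 1, with 9 and 5 reads. Ccl5, a chemokine of T and NK cells, had 57.7 normalized counts in day 3 replicate 1 and at most 3.99 in the others. Of the 4 tested, Ccl5 was the 1 gene tested only because of day 3 replicate 1, so its place there was set by the filter. B cell markers summed to 287 to 584 normalized counts at day 3 and 296 to 344 at day 28. Of 3 tested, 1 had an unadjusted p under 0.05, and Pax5 (-2.08) and Igkc (-1.38) led by p.

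Microglia markers summed to 10303 normalized counts in day 3 replicate 1, 1.45 times the day 28 mean, against 9.13 times for the 10 class I genes. In day 3 replicate 2 the summed microglia markers were at 0.91 times the day 28 mean, and the summed class I genes at 2.69 times. B2m, H2-K1 and H2-D1 made up most of these class I sums. Taken gene by gene, the median ratio of the 10 class I genes was 12.1 in day 3 replicate 1 and 1.22 in day 3 replicate 2. The median difference of the 18 microglia markers was -0.10, with 5 at an unadjusted p under 0.05, led by Sall1 (0.89) and P2ry12 (0.60). The other 3 were C1qa (-0.71), C1qb (-0.72) and C1qc (-0.95), which went the other way. In day 3 replicate 1 C1qa, C1qb and C1qc were at 2.89, 2.69 and 3.48 times the day 28 mean. Sall1 and P2ry12 were at 0.54 and 0.68 times it there. Monocyte and neutrophil markers summed to 1273 and 313 normalized counts in day 3 replicates 1 and 2 and to 133 to 170 elsewhere. Most of the first value was Lyz2, a lysozyme of myeloid cells, at 890, while Ly6g and Cd177 were at 0 in all libraries. Plac8, Ly6c2 and Ccr2 had 50, 39 and 14 reads in day 3 replicate 1 and at most 6 in any other library. S100a8, S100a9 and Ngp had 0, 5 and 2 reads there, against 10, 40 and 18 in day 3 replicate 2. The median difference of the 4 tested myeloid genes was -1.46, and -0.34 without day 3 replicate 1. Of these, 0 had an unadjusted p under 0.05, with S100a9 (-1.94) and Lyz2 (-1.71) leading by p. Border macrophage markers summed to 112 to 147 normalized counts at day 3 and at most 91.8 at day 28, with 0 of 3 at an unadjusted p under 0.05 and Cd163 (-1.26) and F13a1 (-0.79) first. The part of these cells in the class I values was not tested.

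Endothelial markers were at 1.51, 0.86 and 0.97 times the day 28 mean in day 3 replicates 1 to 3, with 10 of 14 highest in the first. Their median difference was -0.010 with 1 at an unadjusted p under 0.05, and Ly6c1 (-0.91) and Ly6a (-0.97) came first by p. Reactive astrocyte genes, a list that shares Gbp2, Iigp1 and Cxcl10 with the interferon-gamma list, were at 4.48, 2.30 and 1.31 times the day 28 mean. Their median difference was -1.11 over 15 genes, with 7 at an unadjusted p under 0.05, led by Lcn2 (-3.92) and Serpina3n (-1.04). Of the 15, Cxcl10 was tested only because of day 3 replicate 1, and the median of the other 14 was -1.08. Astrocyte markers (median -0.15, 6 of 10 at an unadjusted p under 0.05, Gjb6 -0.78 and Slc1a2 0.37 first) had summed levels of 0.89 to 0.97 times the day 28 mean at day 3. Neuron markers had a median of 0.0024, with 6 of 12 at an unadjusted p under 0.05, and Gad1 (0.43) and Stmn2 (-0.35) came first.

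Oligodendrocyte markers had a median of -0.49 with 9 of 10 at an unadjusted p under 0.05, led by Cldn11 (-0.67) and Mobp (-0.63). Of the 10, 9 were highest in day 3 replicate 2 or 3 and 0 in day 3 replicate 1. Cerebellar neuron genes, with a median of -1.93 and 8 of 19 at an unadjusted p under 0.05 (Slc1a6 -1.93 and Neurod1 -1.95 first), were at 2.91 and 2.81 times the day 28 mean in day 3 replicates 1 and 2. In both of these libraries B2m, H2-K1, H2-D1, Psmb8 and Psmb10 lay above every day 28 library. Tap1, Tap2, Tapbp, Psmb9 and Nlrc5 did so in day 3 replicate 1 but not in day 3 replicate 2. The part of cerebellar content in the class I values was not tested. Liver-made genes (median -1.06, -3.11 without day 3 replicate 1, 0 of 15 at an unadjusted p under 0.05, Trf -1.08 and Hp -2.17 first) were at 27.9 times the day 28 mean in day 3 replicate 2. Red blood cell genes (median -1.05, 5 of 6 at an unadjusted p under 0.05, Alas2 -1.33 and Hbb-bt -1.12 first) were at 1.21, 2.84 and 2.06 times the day 28 mean at day 3. B2m, H2-K1 and H2-D1 were thus high in day 3 replicate 2 together with liver-made and blood transcripts, whose part in the class I values was not tested.

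The 8 genes whose profile over the 6 libraries was most like the mean of the class I genes were Naip2, Lyz2, Agbl2, Podxl, Irf1, Cd300lf, Nod1 and H2-Q4. Their Pearson r ran from 0.984 to 0.991 across 6 libraries, among 5254 genes that spanned at least 1 log2 unit. Likeness here is set largely by day 3 replicate 1, which was the highest library for all 8. Lyz2 had 890, 95.6 and 26.8 normalized counts at day 3, and 65.9, 34.8 and 27.5 in the day 28 libraries. Podxl, a sialomucin of vascular endothelium, had 821, 331 and 277 at day 3, and 312, 304 and 306 in the day 28 libraries, so that outside the first library it hardly varied.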

How the data were processed

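The deposited table held log2 values for 56748 genes in 6 brain libraries. The genome build was GRCm39 per the submitters' processing notes. Aligner, counter, annotation and scaling tool: not given in the sources used here. After back-transformation, 100% of values were whole reads (tolerance 0.001 reads) at a fixed step in each library, so the deposited log2 values are read counts divided by a size factor (0.822 to 1.12), plus 1. Symbols were matched through GENCODE M21 for 52073 identifiers. The unit was log2, so limma 3.58.1 in R 4.3.3 was fitted to log2(value + 1) of the 16162 genes whose normalized counts averaged at least 10. The model held group alone, with an intensity trend, 4 residual degrees of freedom, two-sided tests and Benjamini-Hochberg adjustment over all tested genes at 0.05. Fold changes on this scale understate changes of low genes. The procedure was tested on simulated counts, with the same dispersion for every gene and no library that stood apart. That test cannot show how the procedure does with day 3 libraries as unlike as these.

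The 10 members and all lists were chosen with earlier results of these data known. Named genes were the members, the 2 genes of smallest p in each of 22 other lists, and the 8 most like the members' mean profile. Leaving out genes whose other 5 libraries averaged under 10, so that they were tested only because of day 3 replicate 1, was an alternative chosen after seeing the data. Any further gene was picked once its values were known. The labels state no pairing by replicate number, and the main model used none. Promoters came from RefSeq (GRCm38.p6) and transcript lengths from GENCODE M21, an older build than the files', so lengths are approximate. Promoters of Tap2 and Nlrc5 were not used here. Figures were drawn with matplotlib 3.10.9. Some genes of the lists are not reported here.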

Additional observations from a re-analysis of the deposited data

How the results depend on the processing

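Of 20 alternatives, 6 leave the members' log2 differences as they are by construction. Of the 140 log2 differences of single members under the other 14, 121 kept their direction and their side of the threshold, 3 newly passed it and 16 changed sign. The 3 were B2m, H2-K1 and H2-D1 without day 3 replicate 3. With single libraries left out, members called ran from 0 to 3, their median log2 difference from -2.34 to -0.069, all genes called from 1 (day 28 replicate 1 left out) to 623 (day 3 replicate 3 left out), and the mean immunoproteasome gap from -1.32 to 0.82. All genes called were 2 without day 3 replicate 2, day 28 replicate 2 or day 28 replicate 3, and 31 without day 3 replicate 1, of which 16 were shared with the 31 from all libraries. They were 68 with no filter, 3 with no intensity trend, 74 with robust empirical Bayes, 69 with library weights, 2 with the cerebellar covariate and 152 at an adjusted p of 0.1. With voom on the reads they were 0 (members at an unadjusted p under 0.05: 1). In every one of these settings other than without day 3 replicate 3, 0 members passed. The cause of these shifts was not tested.

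With the replicate number as a replicate block, 0 genes and 0 members were called, 4 members at an unadjusted p under 0.05, and the median stayed at -1.56. Same-numbered libraries had correlations of deviations of 0.034, 0.13 and -0.062, and not every library correlated best with its own number. The labels state no pairing, and with 3 libraries per group these correlations cannot show whether there is a pairing.

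Without day 3 replicates 1 and 2, 0 genes were called and the members' median was 0.082. The signs then turned for Tap1 (0.035), Tap2 (0.39), Tapbp (0.13), Psmb8 (0.49), Psmb9 (1.74), Nlrc5 (2.30) and the mean gap (1.05). Without day 3 replicate 1 they turned for Tap1 (0.073), Tap2 (0.21), Psmb9 (2.00), Nlrc5 (0.69) and the mean gap (0.82, exact permutation p = 0.1, the smallest that 2 against 3 libraries can give). Over the single libraries left out, Tap1 ran from -2.25 to 0.073, Tap2 from -1.20 to 0.21, Psmb9 from -1.22 to 2.00 and Nlrc5 from -3.77 to 0.69. With the cerebellar covariate they turned for Tap2 (0.045), Psmb9 (1.04) and Nlrc5 (0.17). Psmb9 also turned with 0.5 added (0.012), with library weights (0.69) and without day 28 replicate 3 (0.082). Under 12 reads of Nlrc5 in 5 libraries and under 5 of Psmb9 in day 3 replicates 2 and 3 limit those values.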
